A study of Mus musculus with 4 samples.

Results

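The genes described here are 10 markers of astrocytes, the glial cells that support synapses and blood vessels throughout the brain. They were taken by name, as every probe set of the array whose annotated gene symbol was exactly Gfap, Vim, Aqp4, Gja1, Gjb6, S100b, Aldoc, Sox9, Fgfr3 or Slc4a4. Each of the 10 genes had 1 probe set, so the members are 10 of 35556 probe sets. Gfap and Vim, which encode the intermediate filaments that astrocytes build up when they become reactive, are called the reactive genes, and the other 8 the homeostatic genes.
Whole-brain RNA of adult male C57BL/6J mice had been hybridized to 4 Mouse Gene 1.0 ST arrays, each with RNA pooled from 3 males of different litters. On the 2 ethanol arrays, called ethanol 2 and ethanol 4 after their titles, were mice given 2.5 g/kg ethanol in saline under the skin on postnatal days 4 and 7, with 2 doses on each day set 2 hours apart. On the 2 control arrays, control 1 and control 3, were littermates given saline alone. Per the labels all were weaned on day 25 and their brains taken on day 60, whereas the methods of the study name other days. Control 1 and ethanol 4 carry a treatment entry for the opposite group, and title with source name decided the groups here. A pool is the replicate, so n = 2 per group, and the spread between mice within a pool is not seen.
Astrocytes take up glutamate and potassium from around synapses, pass ions and metabolites to each other through gap junctions, and surround vessels with endfeet that carry water channels. After injury or inflammation they become reactive, with more of the filament proteins GFAP and vimentin. In rodents the first postnatal weeks, when the pups were injected, are a time of astrocyte production and maturation.

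The upstream sequences of 4 members are shown because these genes carry the comparison below: the reactive pair, Fgfr3 as the 1 member past the study's limits, and S100b as the homeostatic gene with the next largest difference. The sequences are the 250 bases before the RefSeq transcript start in build GRCm38.p6, on the strand of the gene. Windows of 8 of the 10 members were kept, and Sox9 and Aqp4 are named only. Fgfr3 has a second start, of which the sequence is not shown.
Gfap, chr11:102897201-102897450, minus strand: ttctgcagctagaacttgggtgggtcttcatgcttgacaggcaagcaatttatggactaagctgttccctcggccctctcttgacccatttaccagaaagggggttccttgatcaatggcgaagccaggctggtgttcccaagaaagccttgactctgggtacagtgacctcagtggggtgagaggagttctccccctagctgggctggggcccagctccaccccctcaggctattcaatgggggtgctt
Vim, chr2:13574061-13574310, plus strand: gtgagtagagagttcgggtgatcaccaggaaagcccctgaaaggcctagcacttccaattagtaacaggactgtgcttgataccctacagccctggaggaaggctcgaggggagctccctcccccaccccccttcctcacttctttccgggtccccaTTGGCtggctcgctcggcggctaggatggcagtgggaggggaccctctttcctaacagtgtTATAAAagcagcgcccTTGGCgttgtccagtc
Fgfr3, chr5:33721474-33721723, plus strand: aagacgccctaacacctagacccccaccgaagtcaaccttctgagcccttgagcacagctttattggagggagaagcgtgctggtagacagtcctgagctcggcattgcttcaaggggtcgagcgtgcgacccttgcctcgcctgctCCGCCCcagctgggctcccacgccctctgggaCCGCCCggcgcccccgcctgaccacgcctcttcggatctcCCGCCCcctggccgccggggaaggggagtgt
S100b, chr10:76253586-76253835, plus strand: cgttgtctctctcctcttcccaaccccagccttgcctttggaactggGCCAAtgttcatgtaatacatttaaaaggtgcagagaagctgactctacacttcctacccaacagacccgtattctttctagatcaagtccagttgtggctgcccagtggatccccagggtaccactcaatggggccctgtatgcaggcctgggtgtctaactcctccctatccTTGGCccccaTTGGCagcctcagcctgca
Capitals mark matches, on either strand, to the TATA box TATAAA, the nuclear factor I half-site TTGGC, the GC box GGGCGG and the STAT site TTCNNNGAA, and no match overlapped another in these 4 windows. Nuclear factor I and STAT proteins are regulators of astrocyte genes, and the GC box is bound by Sp1. Vim had a TATA box that began at position -32 from the start, and nuclear factor I half-sites that began at -93 and -16. Fgfr3 had 3 GC boxes, and S100b had 3 half-sites. Gfap had no match to any of the 4. Among 32851 windows of this length in the same table, 12.4% held TATAAA, 41.5% TTGGC, 32.7% GGGCGG and 7.02% TTCNNNGAA. The matches are a description of letters and were not tested as sites.

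The 4 arrays differed as wholes, which bears on every value below. Array medians were 6.33 and 6.38 log2 on the ethanol arrays and 6.61 and 6.51 log2 on the control arrays, and 80.2% of all probe sets had a lower mean with ethanol, with a median difference of -0.15. Over the 7202 probe sets as bright as the members, with a mean between 8.81 and 12.64 log2, the median difference was -0.11. Differences (ethanol minus control, log2) are therefore given as deposited and after a second quantile normalization, under which the median over all probe sets is -0.0042. The ethanol 2 array stood apart in some pituitary transcripts. Its growth hormone (Gh) signal was 6.53, against 12.26 on ethanol 4, 12.24 on control 1 and 12.19 on control 3. The pituitary marker Pomc instead had 5.48 and 5.50 log2 on the ethanol arrays, against 5.95 and 6.09 log2 on the control arrays. Neuron markers were strong on every array, as in brain: their mean signal was 11.28 and 11.29 log2 on the ethanol arrays and 11.43 and 11.34 log2 on the control arrays. All 10 members had signals of 8.65 log2 or more on every array, well over the array medians.

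The signals of both reactive genes overlapped between ethanol and control arrays as deposited, whereas 5 of the 8 homeostatic genes were lower on both ethanol arrays than on either control array. These 5 were Fgfr3, S100b, Sox9, Aldoc and Slc4a4. The water channel gene Aqp4 was higher on both ethanol arrays, and the groups overlapped for Gfap, Vim and the connexin genes Gja1 and Gjb6. Only Fgfr3 was past the study's limits, which are a difference of 1.2-fold or more and an unadjusted p under 0.05. A count of 1 lower member in 10 stands beside 17.9% of all probe sets that were lower past the same limits, and 0 higher members beside 2.23%. Likewise, 52.7% of all probe sets had both ethanol arrays below both controls and 7.25% had both above, so 5 and 1 of 10 are near these shares. Whole-brain RNA cannot tell fewer astrocytes from less of a transcript in each astrocyte.

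**Figure D1:**
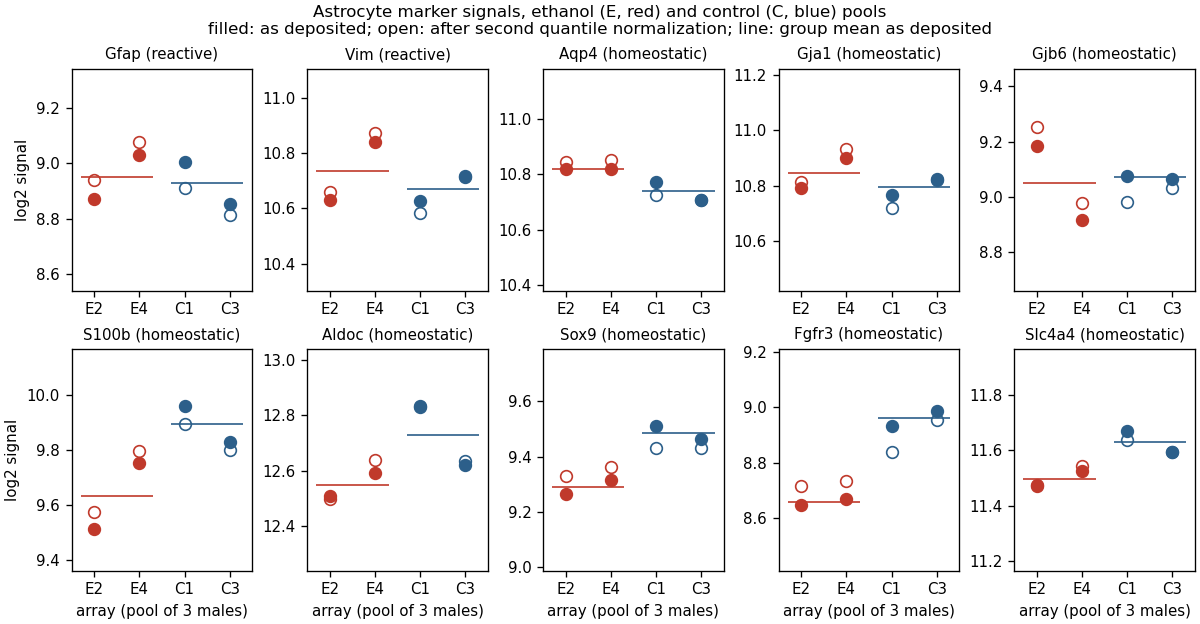
Log2 signal of each astrocyte marker on each array (E2 and E4, ethanol, red; C1 and C3, control, blue), with filled points as deposited, open points after second quantile normalization and a line at the deposited mean of each group; every panel spans 0.8 log2. The ethanol points lie below the control points for S100b, Aldoc, Sox9, Fgfr3 and Slc4a4 as deposited, and the 2 groups overlap for Gfap, Vim, Gja1 and Gjb6.

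Among the reactive genes, Gfap, the filament protein that defines astrocytes in most stains, had signals of 8.87 log2 on ethanol 2 and 9.03 log2 on ethanol 4, against 9.005 log2 on control 1 and 8.85 log2 on control 3. The ethanol pools thus differed from each other by 0.16 and the control pools by 0.15, and each group held a high and a low pool. The difference was 0.021 (standard error 0.11, 95% interval -0.27 to 0.31; limma's moderated test, adjusted p = 0.917). After quantile normalization Gfap was at 0.15 (standard error 0.095, adjusted p = 0.532), with both ethanol arrays, at 8.94 and 9.08 log2, above the controls at 8.91 and 8.81 log2.
Vim, which encodes vimentin and is also made by vascular, ependymal and meningeal cells, had 10.63 log2 on ethanol 2 and 10.84 log2 on ethanol 4, against 10.63 log2 on control 1 and 10.71 log2 on control 3. Here ethanol 4 alone was high and the other ethanol pool matched the lower control. The difference was 0.064 (standard error 0.11, interval -0.23 to 0.36, adjusted p = 0.734), and 0.12 after quantile normalization. Both intervals reach past 1.2-fold (0.263 log2) upward, and that of Gfap also reaches past it downward, so 2 arrays per group leave room for changes of that size. With each array centred on its median, Gfap and Vim were at 0.23 and 0.28. In limma their unadjusted p was 0.0523 and 0.0643, and their adjusted p 0.34 and 0.356. On that scale 9.09% of all probe sets were higher past the limits. The homeostatic genes Gja1 and Aqp4 were then at 0.26 and 0.29, and the median of the 8 homeostatic genes was 0.055. Without ethanol 4, Gfap and Vim were at -0.057 and -0.040.

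Of the transcripts for growth factor response and lineage, Fgfr3, a receptor for fibroblast growth factors found on astrocytes and their precursors, had signals of 8.65 and 8.67 log2 on the ethanol arrays, against 8.93 and 8.99 log2 on the control arrays. The pools of each group lay within 0.053 of each other and the groups were apart. Fgfr3 fell by 0.30 on the log2 scale, to 0.811 of the control level (standard error 0.084, interval -0.52 to -0.081, unadjusted p = 0.018 and adjusted p = 0.179 in limma). After quantile normalization the groups were still apart, but the difference was -0.17 (standard error 0.087, adjusted p = 0.453) and no longer past the limits. Over all probe sets, 20.6% had a lower difference than Fgfr3 as deposited. Leaving out ethanol 2, ethanol 4 or control 3 put its unadjusted p at 0.0749, 0.0625 and 0.0783, with differences of -0.29, -0.31 and -0.28.
Sox9, the transcription factor that starts and maintains the astrocyte lineage, had 9.26 and 9.31 log2 on the ethanol arrays, against 9.51 and 9.46 log2 on the control arrays. The groups were apart and pools of a group differed by 0.050 at most. The difference was -0.20 (standard error 0.085, interval -0.42 to 0.027, adjusted p = 0.256), and -0.083 after quantile normalization.
S100b, a calcium-binding protein of astrocytes that oligodendrocytes and folliculostellate cells of the pituitary also make, had 9.51 and 9.75 log2 on the ethanol arrays, against 9.96 and 9.83 log2 on the control arrays. The lowest value was on ethanol 2, where Gh was low as well, and ethanol 4 lay just under control 3. The difference was -0.26 (standard error 0.12, interval -0.58 to 0.058, adjusted p = 0.274), and -0.16 after quantile normalization. Without ethanol 2 it was -0.14, and without ethanol 4 it was -0.38, then past the limits (unadjusted p = 0.0485 in limma). The mean signal of the 8 pituitary markers measured was 5.71 log2 on ethanol 2 and 7.76 log2 on ethanol 4, against 7.80 and 7.73 log2 on the controls. The gap between the ethanol arrays was uneven over these markers. Gh had 6.53 log2 on ethanol 2 and 12.26 log2 on ethanol 4, whereas Pomc had 5.48 and 5.50 log2. The part of pituitary transcripts in the S100b value was not tested.

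Of the metabolic and ion transport genes, Aldoc, the brain form of the glycolytic enzyme aldolase, had 12.51 and 12.59 log2 on the ethanol arrays, against 12.83 and 12.62 log2 on the control arrays. Control 1 alone was high, and control 3 stood only just above ethanol 4. The difference was -0.18 (standard error 0.11, adjusted p = 0.373), -0.073 without control 1 and -0.29 without control 3, and after quantile normalization it was -0.17 with control 3, at 12.63 log2, inside the range of the ethanol arrays.
Slc4a4, the sodium bicarbonate cotransporter that astrocytes use to regulate pH, had 11.47 and 11.53 log2 on the ethanol arrays, against 11.67 and 11.59 log2 on the control arrays. The groups were apart by less than the gap between the control pools, which was 0.076. The difference was -0.13 (standard error 0.088, adjusted p = 0.392), and 52.8% of all probe sets had a lower one, so Slc4a4 lay near the middle of all differences. After quantile normalization it was at -0.11.

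Of the endfoot and gap junction genes, Aqp4, which encodes the water channel of astrocyte endfeet, had 10.82 log2 on both ethanol arrays, against 10.77 log2 on control 1 and 10.71 log2 on control 3. It was the member with the highest difference, at 0.081 (standard error 0.084, interval -0.14 to 0.30, adjusted p = 0.571), and 88.8% of all probe sets had a lower one. After quantile normalization Aqp4 was at 0.13, with the groups still apart. With each array centred on its median instead, Aqp4 was at 0.29 and past the limits (unadjusted p = 0.0189 in limma, adjusted p = 0.278), where 9.09% of all probe sets were higher past them.
Gja1, the main astrocyte connexin, had 10.79 and 10.90 log2 on the ethanol arrays, against 10.77 and 10.82 log2 on the control arrays. The groups overlapped, and the difference of 0.051 (standard error 0.091, adjusted p = 0.746) was smaller than the gap of 0.11 between the ethanol pools. Gjb6, the second astrocyte connexin, had 9.19 and 8.92 log2 on the ethanol arrays, against 9.08 and 9.07 log2 on the control arrays. One ethanol pool was above both controls and the other below them, and the pair differed by 0.27, the widest such gap among the 10 members. The difference of Gjb6 was -0.019 (standard error 0.12, adjusted p = 0.933) as deposited and 0.11 after quantile normalization, so its sign follows the scaling.

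**Figure D2:**
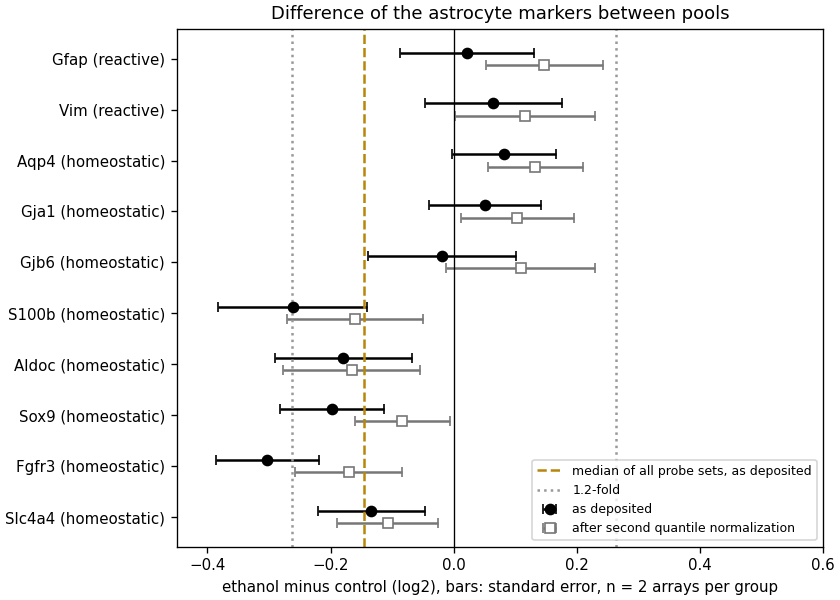
Difference between ethanol and control arrays (log2, horizontal axis) for each astrocyte marker, as deposited (filled circles) and after second quantile normalization (open squares), with standard errors from limma and n = 2 arrays per group; the dashed line is the median of all probe sets as deposited and the dotted lines are 1.2-fold. Fgfr3, at -0.30, is the only deposited difference past the limits. The 2 reactive genes lie to the right of the dashed line at 0.021 and 0.064, as do Aqp4, Gja1, Gjb6 and Slc4a4.

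Counted over the members, 6 of 10 had a difference below 0 as deposited and their median was -0.077, beside -0.15 for all probe sets. After quantile normalization the median was 0.010, and 0 of the 10 were past the limits in either direction, where 5.87% of all probe sets were lower and 5.71% higher past them. Then 4 members (Fgfr3, S100b, Sox9 and Slc4a4) had both ethanol arrays below both controls and 2 (Gfap and Aqp4) above, beside 24.9% and 24.0% of all probe sets. The 5 lower members kept a difference below 0, although Aldoc then overlapped. With arrays centred on their medians, Fgfr3 and S100b were at -0.091 and -0.050, whereas Sox9, Aldoc and Slc4a4 were above 0, at 0.014, 0.032 and 0.078. No member passed an adjusted p of 0.05 in limma, in which 1 of all probe sets did, and 1 member passed an unadjusted p of 0.05. Grouped by the treatment entry of the labels, 0 members were past the limits, where 0.686% of all probe sets were lower and 0.917% higher past them, and Fgfr3 was at -0.038.

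A value within each array, which a uniform shift of the array cannot move, is the mean of the reactive genes minus that of the homeostatic genes. Relative to the mean of the controls it was 0.089 log2 on ethanol 2 and 0.24 log2 on ethanol 4, against -0.011 log2 on control 1 and 0.011 log2 on control 3. It was higher on both ethanol arrays, more so on ethanol 4, and the group difference was 0.16 (pooled SD between pools of a group 0.075; no test was made, since the genes were chosen with results known).
As deposited, the 2 ethanol arrays reached it in different ways. On ethanol 2 the reactive mean was at -0.049 and the homeostatic mean at -0.14. On ethanol 4 the reactive mean was at 0.13 and the homeostatic mean at -0.10. After quantile normalization the reactive mean was above 0 on both, at 0.044 on ethanol 2 and 0.22 on ethanol 4. The homeostatic mean was then at -0.063 and -0.023. On that scale the value was 0.11 on ethanol 2 and 0.24 on ethanol 4, against -0.015 and 0.015 on the controls. Without ethanol 4 the group difference was 0.089, and under the grouping by treatment entry it was -0.085.

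**Figure D3:**
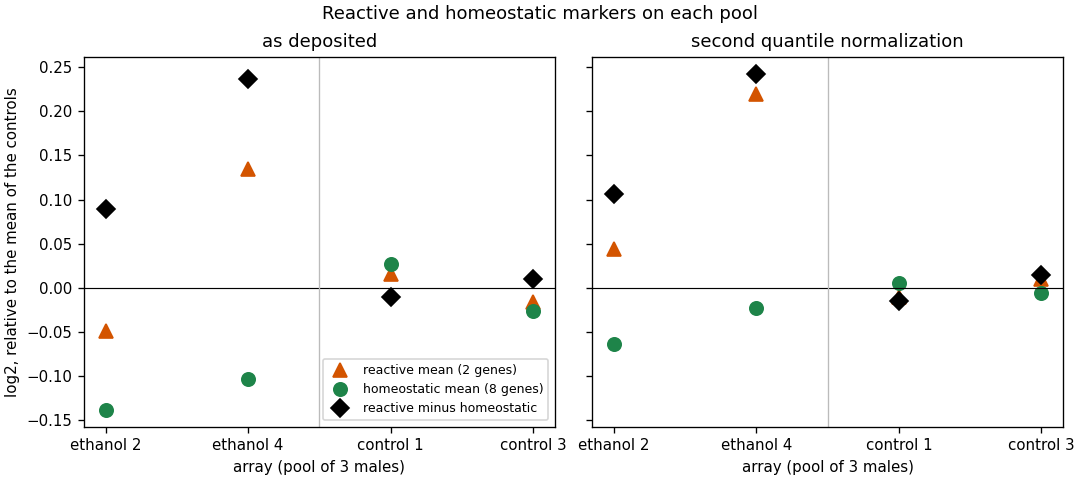
Mean log2 signal of the 2 reactive genes (triangles) and of the 8 homeostatic genes (circles) on each array relative to the mean of the control arrays, and the first minus the second (diamonds), as deposited on the left and after second quantile normalization on the right. The diamonds stand at 0.089 and 0.24 on the ethanol arrays and within 0.011 of 0 on the control arrays as deposited.

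The reactive and homeostatic labels did not divide the members by profile. With arrays centred on their medians and each gene on its own mean, the pair of genes nearest to each other over the 4 arrays was Sox9 and Slc4a4 (root mean square distance 0.034 log2), followed by the reactive gene Vim with the connexin gene Gja1 (0.039). The farthest pair was Gjb6 and S100b (0.22). These distances rest on 4 arrays and describe them only. Gja1 and Aqp4 were thus closer in their values to the reactive genes than to Fgfr3, and the distance between Aqp4 and Fgfr3 was 0.197.

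Other astrocyte genes, taken from 5 lists, gave the surroundings of the 10 markers. Of 111 listed genes 102 were measured by a probe set naming them alone, of which 14 were lower and 1 was higher past the limits, beside 17.9% and 2.23% of all probe sets. Their median difference was -0.13. After quantile normalization 4 were lower and 4 higher of 102, where 5.87% of all probe sets were lower and 5.71% higher past the limits. The 4 lower were Slc16a1, Apoe, Slc10a6 and Tnc. The 4 higher were Glul, the urea transporter gene Slc14a1 (0.33), the cytokine gene Clcf1 (0.40) and the sphingosine kinase gene Sphk1 (0.33). With arrays centred on their medians the split was 1 lower and 6 higher of 102, where 3.91% of all probe sets were lower and 9.09% higher past the limits.
The 1 higher gene was Glul, glutamine synthetase, the astrocyte enzyme that turns glutamate into glutamine. Glul had 13.06 and 13.01 log2 on the ethanol arrays, against 11.47 log2 on control 1 and 12.54 log2 on control 3. The ethanol arrays were alike and above both controls, but the controls differed from each other by as much as the groups did. The difference was 1.03 (standard error 0.36, unadjusted p = 0.0412 and adjusted p = 0.213 in limma), 1.04 after quantile normalization, 0.49 without control 1 and 1.56 without control 3. The other 8 glutamate, GABA and potassium genes measured were not past the limits, among them the glutamate transporter gene Slc1a2 at -0.13.
Of 18 genes for metabolism and lipid carriers, 3 were lower: Slc16a1, a lactate transporter, at -0.44, the secreted chaperone Clu at -0.29 and the lipid carrier Apoe at -0.27. Slc16a1 and Apoe were past the limits after quantile normalization too, at -0.31 and -0.28, and Clu was not. Of 22 surface and endfoot genes, 4 were lower, namely the neurotensin receptor gene Ntsr2 (-0.30), Fgfr2, a second receptor for fibroblast growth factors (-0.29), the dystrophin gene Dmd (-0.27) and the matrix gene Bcan (-0.26). Of 19 regulators, 4 were lower: Hes1 (-0.44), Notch1 (-0.36) and Notch2 (-0.33) of the Notch pathway, and the zinc finger gene Glis3 (-0.27). None of these 8 was past the limits after quantile normalization. The counts of 3 in 18, 4 in 22 and 4 in 19 stand beside 17.9% of all probe sets lower as deposited.
Of 34 further genes tied to reactive astrocytes, 3 were lower past the limits and 31 were neither, beside 17.9% of all probe sets lower. The 3 were the matrix protein tenascin (Tnc, -0.49), the sulfated steroid transporter gene Slc10a6 (-0.42) and the oncostatin M receptor gene Osmr (-0.31), with signals of at most 6.77 log2 on any array. The median of this list was -0.11 as deposited and 0.037 after quantile normalization, when Clcf1 and Sphk1 were higher and Slc10a6 and Tnc lower. The list was dim, with mean signals of 6.41 and 6.45 log2 on the ethanol arrays and 6.58 and 6.53 log2 on the controls, near the array medians. Clcf1 and Sphk1 had at most 5.17 and 6.09 log2 on any array.
Of 82 markers measured for other cells, 9 were lower past the limits and 1, the meningeal marker Slc6a13, was higher (0.35), beside 17.9% and 2.23% of all probe sets. After quantile normalization 2 were lower (Cnp and Pomc) and 2 higher (Slc6a13 and Cspg4), beside 5.87% and 5.71%. The median difference of 12 neuron markers was -0.11 as deposited and -0.068 after quantile normalization, and that of 9 oligodendrocyte markers -0.18 and -0.13. The 8 homeostatic astrocyte genes were at -0.16 and -0.095 on the same scales.
Several of the other medians turned with the scaling. Microglia markers (10 genes) were at -0.068 as deposited and 0.049 after quantile normalization, endothelial and mural markers (10) at -0.072 and 0.065, meningeal markers (8) at -0.040 and 0.046, and the 1 blood marker at -0.16 and 0.023. Ependymal and choroid plexus markers (10) were at -0.17 and -0.029, and neural stem and Bergmann glia markers (8) at -0.26 and -0.094. Markers of oligodendrocyte precursors (6) were at 0.044 and 0.18, and without control 3 at -0.0094 as deposited. Pituitary markers (8) were at -0.50 and -0.31, but at 0.040 without ethanol 2, and the meningeal median was 0.018 without it.
The mean signal of the oligodendrocyte markers, a cell type that also makes S100b, was 10.91 log2 on both ethanol arrays and 11.11 and 11.04 log2 on the controls, and their part in the S100b value was not tested.

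**Figure D4:**
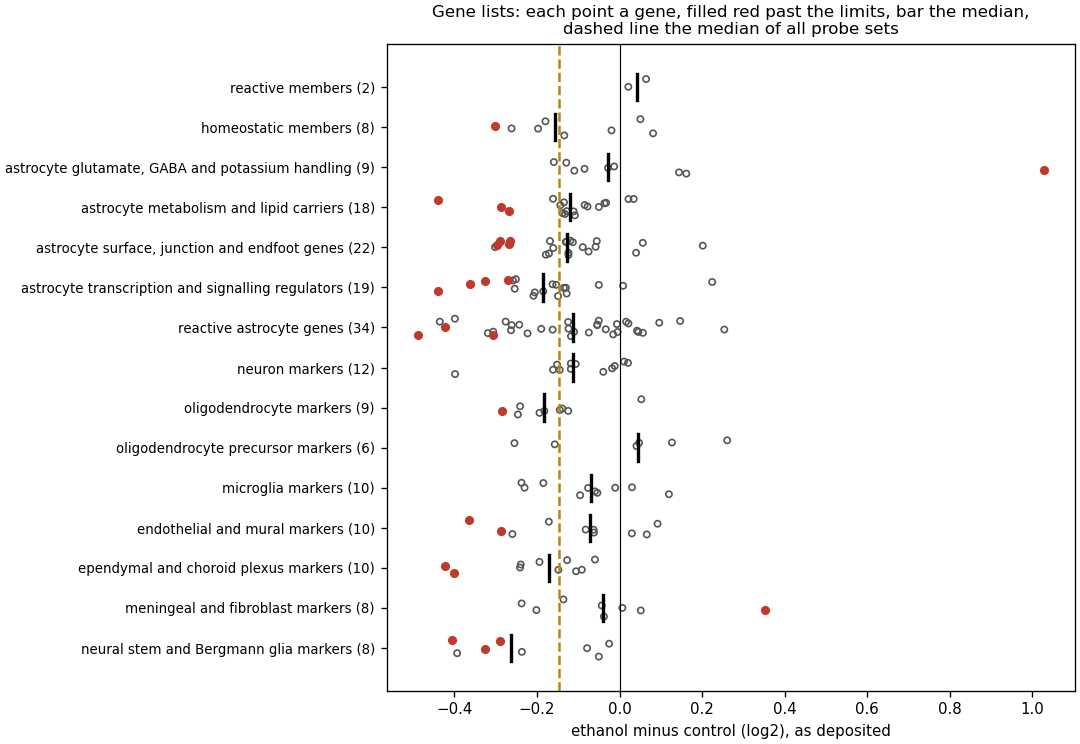
Difference between ethanol and control arrays (log2, as deposited, horizontal axis) for each gene of the astrocyte lists and of the marker lists of other brain cells, with the number of genes measured in brackets; filled red points are past the limits, bars are list medians and the dashed line is the median of all probe sets. Most list medians lie between -0.18 and 0, and the point at 1.03 is Glul.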

How the data were processed

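Per the labels and methods, total RNA from whole brain was pooled from 3 males per array and hybridized to Affymetrix Mouse Gene 1.0 ST arrays, and the authors summarized the probes in Partek Genomics Suite (6.6 in the submitters' processing notes) by RMA adjusted for GC content with quantile normalization. Each of the 35556 probe sets has a log2 signal in the deposited tables. The array medians differ, so values were used as deposited and after a second quantile normalization. Gene symbols come from the platform annotation, and the Entrez IDs of all 10 members matched RefSeq. All probe sets were fitted with limma 3.58.1 in R 4.3.3 (2 residual and 2.57 prior degrees of freedom, two-sided, no filter on dim probe sets), with Benjamini-Hochberg adjustment over the whole array. The limits, 1.2-fold and an unadjusted p of 0.05, are those of the study. P-values rest on the spread between these pools, which limma moderates for each probe set by that of all probe sets. The labels name no separate batches. As these are arrays, their number limits the precision. The limma fit was tested on simulated arrays with known folds and no shift of whole arrays.
The members and lists were chosen with earlier results of these data known. A gene of a list is represented by its brightest probe set naming it alone. The text names all members and, in the astrocyte lists, genes past the limits (at most the 4 with the smallest p). The other lists, named in the same rule, are given by counts and medians only, and Slc1a2, Slc14a1, Clcf1, Sphk1, Slc6a13, Cspg4, Cnp, Pomc and Gh were named after their values were seen. The alternatives were the second quantile normalization, centring on array medians, an intensity trend, a minimum mean log2 of 5, the methods' ANOVA per probe set, the grouping by the treatment entry, ethanol 2 against control 3 alone, each array left out, a 1.5-fold limit and all probe sets of a gene.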

Additional observations from a re-analysis of the deposited data

How the results depend on the processing

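For the 10 members, the intensity trend, the methods' test and a minimum mean log2 of 5 changed no direction and no call. The count of lower members past the limits, 1 as reported, was 0 after second quantile normalization, with arrays centred on their medians, under the treatment entry and at 1.5-fold, and 0 to 1 with an array left out. The count of higher members was 0 under all these except 1 with centred arrays (Aqp4). The reactive minus homeostatic difference, 0.16, was -0.085 under the treatment entry, 0.079 for ethanol 2 against control 3, and 0.089 to 0.24 with an array left out. Of the other astrocyte genes, 14 lower and 1 higher as reported, quantile normalization left 4 and 4, centring 1 and 6, the methods' test 7 and 0, the treatment entry 0 and 0, the 1.5-fold limit 0 lower, and single arrays left out 5 to 13 and 0 to 1 (5 and 0 without ethanol 2, 6 and 0 without ethanol 4, 6 and 1 without control 1).
Directions turned as follows, for the members under any alternative and for the other named genes under the treatment entry only. Under the treatment entry Gfap was at -0.0028, Vim at -0.15, Gja1 at -0.082, Gjb6 at 0.14, Aldoc at 0.065 and Slc4a4 at 0.0098. Of the other named genes, Glul was then at -0.51, Slc16a1 at 0.065, Clu at 0.059, Dmd at 0.085 and Glis3 at 0.021. Tnc was at 0.16, Osmr at 0.076, Sphk1 at -0.11, Slc6a13 at -0.073 and Cnp at 0.083 under the same entry. With centred arrays Gjb6 was at 0.19, Aldoc at 0.032, Sox9 at 0.014 and Slc4a4 at 0.078, and after quantile normalization Gjb6 was at 0.11. For ethanol 2 against control 3 Vim was at -0.084, Gja1 at -0.031 and Gjb6 at 0.12. With an array left out, Gfap ran from -0.057 to 0.10, Vim from -0.040 to 0.17, Gja1 from -0.0025 to 0.10 and Gjb6 from -0.15 to 0.11. The cause of these changes was not tested. No paired analysis was possible because the labels do not say which ethanol pool shares litters with which control pool. With 1 array left out, the remaining array of that group is taken to vary as the other group does. Detection is limited by the number of arrays, 2 in each group.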
